A study of Mus musculus with 12 samples.

Results

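The variable (V) gene segments of the immunoglobulin loci were examined in RNA sequencing libraries of cells sorted as macrophages. Members were selected on their raw counts: they were all genes of the table whose symbol begins with Ighv (heavy chain), Igkv (kappa light chain) or Iglv (lambda light chain) and whose counts summed over the 12 libraries reached at least 50. This rule gave 184 of the 344 V segments in the table, which lists 45664 genes in all. Of these 184 segments, 90 were heavy, 91 kappa and 3 lambda. A further 79 segments had no count and 81 had 1 to 49 counts. The rule uses only the sum over all libraries, but a segment used in 1 library alone can pass it, and the levels that follow are therefore descriptions. Just inside the limit were Ighv1-70 and Ighv4-2 with 50 counts each and Igkv1-99 with 52. Just outside were Ighv2-6-8 and Ighv8-5 with 49 each and Igkv2-137 with 47.

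The donors were C57BL/6 mice, young ones of 3 months and aged ones of 24 months, all labelled male, with no genetic change or treatment stated. They were sorted as CD11b+, F4/80+ and Ly6C- with a DAPI gate, either from bone marrow or from bone-associated cells, the fraction tied to bone. The 4 groups were young bone marrow, aged bone marrow, young bone-associated and aged bone-associated, with 3 libraries each from 3 individual mice per age. A mouse gave a library at both sites, as its code in the sample titles shows. RNA was amplified from sorted cells with a low-input kit, so the libraries carry the RNA of every cell type that passed the gate. The labels do not state how the bone-associated fraction was released.

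An antibody chain gene is assembled in a developing B cell by joining a V segment to a J segment, with a D segment between them in the heavy chain. The joined V segment is then transcribed with a constant region such as Ighm or Igkc, and all descendants of that B cell carry the same joined V segments. Plasma cells, the antibody-secreting end stage of the B cell line, hold very large amounts of this RNA. Macrophages do not assemble antibody genes in the standard account, and they carry Fc receptors that bind antibody protein.

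Library totals ranged from 19564981 to 38317512 counts. The sex-linked genes went against the male label in the aged libraries but not in the young ones. Xist, the RNA of the silenced X chromosome, had 0 counts in all 6 young libraries and 1482 to 15397 in the 6 aged ones. Together, Uty, Kdm5d, Eif2s3y and Ddx3y of the Y chromosome had 2638 to 8251 counts in the young libraries and 0 to 3 in the aged ones. Age and this difference cannot be told apart in any comparison of young with aged mice. The macrophage markers (13 of 13 measured, none at 0) summed to 5626 to 9718 CPM (counts scaled to library size, defined below) in bone marrow libraries. In bone-associated libraries they summed to 12035 to 15932 CPM. Neutrophil markers (12 of 12 measured, none at 0) summed to 20810 to 58875 CPM over all libraries, so the sorted cells were not free of neutrophil RNA.

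The germline sequences of 6 segments are shown first, because these segments led the aged bone-associated libraries in which V-segment RNA was highest. They are the heavy and the kappa segment with the most counts in each of the 3 aged mice. Each is the last 300 bases of the coding sequence, spliced from 2 exons, 5′ to 3′, in the GENCODE M21 annotation of GRCm38, without the 5′ bases that encode most of the leader. Capitals mark the last in-frame cysteine codon and the bases after it, where the germline part of the third complementarity-determining region begins and where joining takes place.
Ighv2-3: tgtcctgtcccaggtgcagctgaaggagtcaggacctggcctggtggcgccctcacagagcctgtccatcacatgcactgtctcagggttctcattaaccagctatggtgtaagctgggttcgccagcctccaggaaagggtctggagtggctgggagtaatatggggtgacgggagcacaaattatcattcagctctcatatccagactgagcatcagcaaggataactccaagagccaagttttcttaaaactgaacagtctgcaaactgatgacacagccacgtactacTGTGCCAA
Igkv9-120: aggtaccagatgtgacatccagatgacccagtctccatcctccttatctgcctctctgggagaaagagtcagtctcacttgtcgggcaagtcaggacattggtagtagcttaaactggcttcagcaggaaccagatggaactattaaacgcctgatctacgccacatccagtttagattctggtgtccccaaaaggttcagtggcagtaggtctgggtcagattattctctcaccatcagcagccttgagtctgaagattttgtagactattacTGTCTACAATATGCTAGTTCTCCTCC
Ighv4-1: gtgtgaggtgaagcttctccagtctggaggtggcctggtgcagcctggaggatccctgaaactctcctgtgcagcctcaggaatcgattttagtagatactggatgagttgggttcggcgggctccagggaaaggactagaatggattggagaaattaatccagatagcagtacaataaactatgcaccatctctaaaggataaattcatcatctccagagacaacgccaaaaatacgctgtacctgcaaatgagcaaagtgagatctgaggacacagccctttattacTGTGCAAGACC
Igkv6-32: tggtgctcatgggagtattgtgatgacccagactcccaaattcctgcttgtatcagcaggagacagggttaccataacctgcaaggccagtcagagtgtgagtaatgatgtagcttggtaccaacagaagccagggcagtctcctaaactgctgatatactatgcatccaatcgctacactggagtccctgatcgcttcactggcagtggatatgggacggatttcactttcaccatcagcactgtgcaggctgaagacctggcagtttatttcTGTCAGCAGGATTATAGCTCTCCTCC
Ighv1-26: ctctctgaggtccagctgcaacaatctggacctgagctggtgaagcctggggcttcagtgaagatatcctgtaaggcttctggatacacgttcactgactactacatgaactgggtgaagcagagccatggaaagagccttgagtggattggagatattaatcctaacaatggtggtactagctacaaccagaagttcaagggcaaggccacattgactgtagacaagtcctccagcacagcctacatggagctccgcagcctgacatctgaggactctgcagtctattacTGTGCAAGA
Igkv6-15: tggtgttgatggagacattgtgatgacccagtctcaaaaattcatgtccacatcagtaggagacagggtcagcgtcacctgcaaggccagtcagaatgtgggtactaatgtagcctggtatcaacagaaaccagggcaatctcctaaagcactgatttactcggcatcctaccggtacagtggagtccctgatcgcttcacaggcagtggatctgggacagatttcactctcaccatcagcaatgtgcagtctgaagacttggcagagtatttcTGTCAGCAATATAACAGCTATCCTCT
The first pair led aged mouse 1, the next pair aged mouse 2 and the last pair aged mouse 3. Ighv2-3 lies on the minus strand at chr12:113611187-113611617, Ighv4-1 at chr12:113948282-113948796 and Ighv1-26 at chr12:114788372-114788805, all on the minus strand of the heavy chain locus. Igkv9-120 lies on the plus strand at chr6:68049983-68050456, and Igkv6-32 and Igkv6-15 lie on the minus strand at chr6:70074024-70074603 and chr6:70406469-70406992. All 6 are annotated as V genes. The kappa leaders of mice 2 and 3 belong to the same family and were identical at 283 of 347 aligned bases of the whole coding sequence (81.6%), whereas the other pairs of the same chain type were 54.9% to 65.1% identical. The capitals of the kappa segments are longer (26 bases) than those of the heavy segments (8 to 11 bases), since germline kappa segments reach further into this region.

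Near-identical segments can take or lose reads from each other in gene counting. Of the 184 members, 183 were found in the annotation, 171 of them as V genes and 12 as pseudogenes, and Igkv8-23-1 had no match. The median member shared 22.3% of its 50-base words with another V segment, 162 members shared under 50% and 34 shared none. Igkv6-32 and Igkv12-89 shared none, Igkv6-15 shared 15.8% and Igkv9-120 25.3%. Ighv1-26 shared 49% of its words, and its closest member with a coding sequence, Ighv1-18, was 96.9% identical, so its own counts are less certain. Other segments named below shared more: Igkv6-20 (64.1%), Ighv1-53 (57.6%), Igkv4-55 (53.3%) and Igkv4-57 (50.8%). Their counts are less certain too.

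V-segment RNA was higher in aged mice at both sites, and by far more in bone-associated cells. CPM here are counts per 1000000 counts of the TMM-scaled library size, summed over the 184 members. In young bone marrow the 3 libraries held 516.7, 476.6 and 526.7 CPM (506.6 ± 26.5, mean ± SD, n = 3). In aged bone marrow they held 2846, 2891 and 949.5 CPM (2229 ± 1108), a mean 4.40 times that of the young. Aged mouse 3 was well below the other aged mice, yet its library was still above every young one.
In young bone-associated libraries the level was lowest of all, at 65.7, 31.4 and 63.1 CPM (53.4 ± 19.1, n = 3). In aged bone-associated libraries it was 8576, 9486 and 10930 CPM (9664 ± 1187), a ratio of means of 181. The lowest aged library was 130 times the highest young one, so the groups were far from overlapping. V segments made up 0.805% of all counts in aged bone-associated libraries, against 0.00483% in the young.

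The order of the sites was reversed between ages. Young mice had 7.86, 15.2 and 8.34 times more V-segment RNA in bone marrow than in bone-associated cells (mice 1 to 3). Aged mice had 3.01, 3.28 and 11.5 times more in bone-associated cells than in bone marrow. The groups did not overlap in either comparison. No p-value is attached to these sums, because the members were chosen with results of these data known. In bulk RNA, fewer cells of a type and less RNA per cell cannot be told apart.

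**Figure D1:**
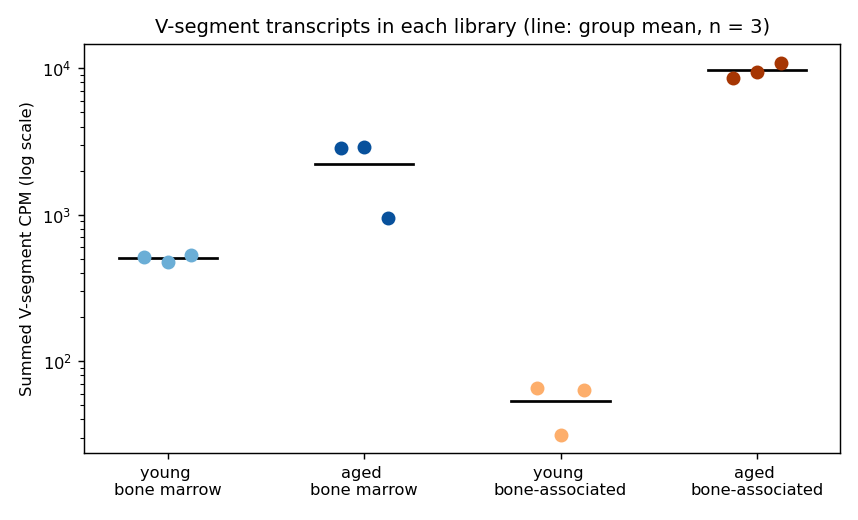
Summed V-segment level of each library, in CPM on a log axis, for the 4 groups, with a line at each group mean (n = 3). Aged libraries lie above young ones at both sites, from 949.5 to 2891 CPM in aged bone marrow and from 8576 to 10930 CPM in aged bone-associated cells.

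Kappa segments took a larger part of the V-segment counts in aged mice. Their share averaged 57.0% ± 2.33 in bone marrow of young mice and 70.1% ± 7.22 in that of aged mice (n = 3 each). In bone-associated libraries it averaged 43.3% (young) and 79.3% (aged). Heavy segments made up 31.9%, 21.2%, 45.5% and 18% in the same order of groups. Lambda segments made up 11.1%, 8.70%, 11.2% and 2.70%. Neither the heavy nor the kappa shares of young and aged groups overlapped at either site.
The 3 lambda segments sit on chromosome 16. Iglv1 held most lambda counts in young bone marrow, with 41.3, 32.5 and 29.8 CPM, and 56.8, 133.9 and 80.0 CPM in aged bone marrow, a difference that did not pass the test. In aged mouse 2 Iglv1 reached 646.1 CPM in bone-associated cells, against 16.6 and 32.6 CPM in the other aged mice.

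Libraries differed in how many segments they used. Depth in V-segment counts differed greatly, from 573 to 1738 in young bone-associated libraries, 15277 to 20747 in young bone marrow, 30510 to 82231 in aged bone marrow and 208480 to 343643 in aged bone-associated libraries. The number of segments was therefore compared as the expected number with a count after thinning each library to 573 V-segment counts, the lowest total. Young bone marrow libraries then used 130.2, 133.2 and 128.9 segments (130.8 ± 2.24, n = 3). Aged bone marrow libraries used 67.2, 61.6 and 67.6 (65.5 ± 3.33). Young bone-associated libraries used 82.2, 58.0 and 73.7 (71.3 ± 12.3). Aged bone-associated libraries used 32.4, 18.9 and 13.6 (21.6 ± 9.73), fewer than any other library. The groups did not overlap in any of the 4 comparisons.
Without thinning, the direction for age in bone-associated cells changed. Aged libraries there had a count for 100, 79 and 60 members and young ones for 95, 58 and 82, so that the means were 79.7 and 78.3. In bone marrow the unthinned numbers were 182, 183 and 181 in young and 177, 171 and 156 in aged mice.

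A measure that weighs segments by their share gave the same order. The inverse Simpson index, which equals the number of segments if all were used evenly, was 52.1 ± 11.1 in young bone marrow and 10.9 ± 2.37 in aged bone marrow (n = 3 each). It was 34.1 ± 4.87 in young and 5.14 ± 2.86 in aged bone-associated libraries, with a low of 2.0 in aged mouse 3. In young bone marrow 21 to 26 segments were needed to cover 50% of the V-segment counts. In aged bone marrow 4 to 5 covered them. In aged bone-associated cells 3, 3 and 1 segments did so, against 12 to 15 in the young. For 90% of the counts, 98 to 102 segments were needed in young bone marrow and 3 to 14 in aged bone-associated cells.

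**Figure D2:**
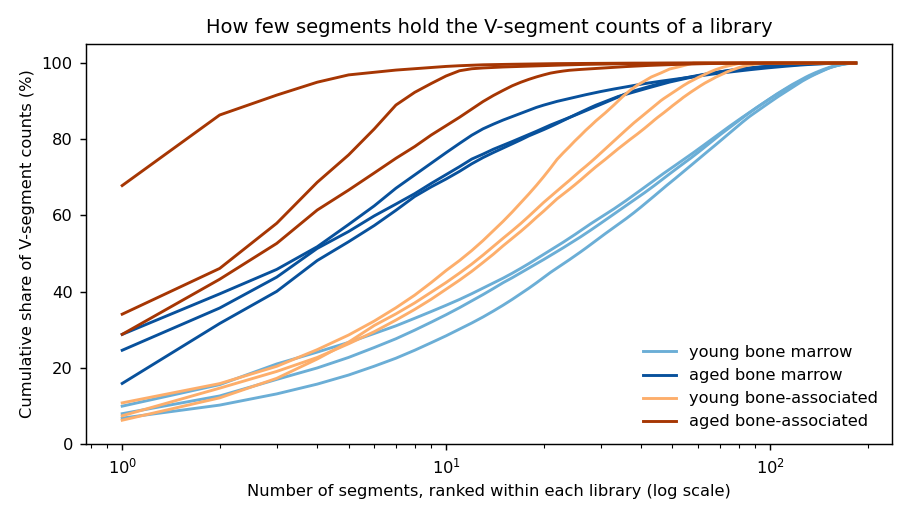
Cumulative share of V-segment counts (%) against the number of segments, ranked within each library on a log axis, 1 line per library coloured by group. The aged bone-associated lines reach 90% with 3 to 14 segments and the young bone marrow lines with 98 to 102.

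The leading segments held most of the V-segment counts in aged libraries. The top 5 of each library held 22.7%, 18.1% and 26.7% in young bone marrow (22.5% ± 4.29, n = 3). They held 55.8%, 57.6% and 53.1% in aged bone marrow (55.5% ± 2.28), well above every young library.
In young bone-associated libraries the top 5 held 26.3%, 28.6% and 26.8% (27.2% ± 1.22), which overlapped the young bone marrow range. In aged bone-associated libraries they held 66.7%, 75.9% and 96.9% (79.8% ± 15.5). Aged mouse 3 stood highest here, with almost all V-segment RNA in 5 segments.
The top segment alone held 6.82% to 9.96% in young bone marrow, 15.9% to 28.8% in aged bone marrow and 6.27% to 10.8% in young bone-associated libraries. In aged bone-associated cells it held 28.8% (95% Wilson interval 28.6 to 29.0), 34.1% (33.9 to 34.3) and 67.8% (67.7 to 68.0) in mice 1 to 3. In young bone-associated mouse 2, the shallowest library, the interval of the top share ran from 8.53% to 13.6%. These intervals cover counting error only, since no molecular identifiers are stated and copies of 1 molecule may be counted again. A segment with no count could still hold up to 0.524% of the V-segment counts in that library, if 3 counts are taken as the limit, but only 0.00144% or less in the aged bone-associated ones.

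**Figure D3:**
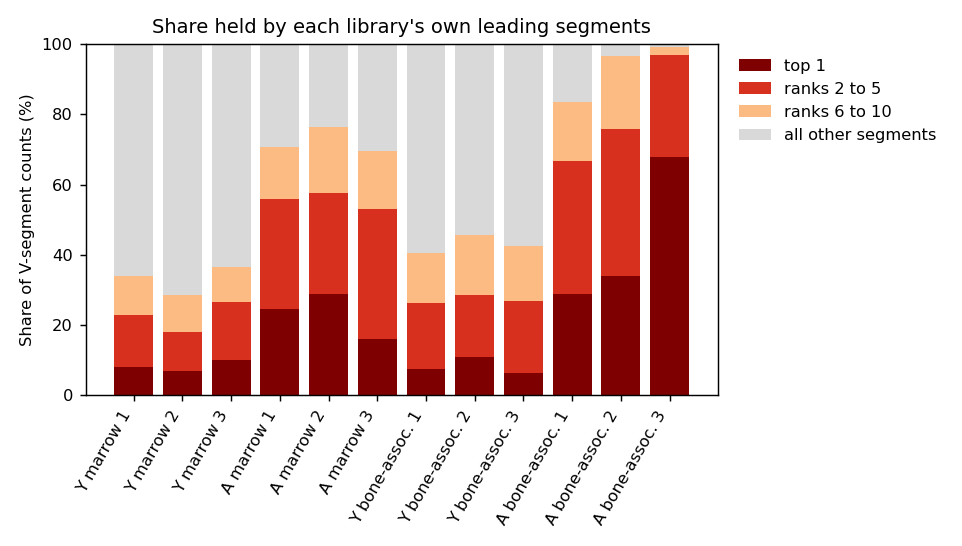
Share of V-segment counts (%) held in each library by its top segment, by ranks 2 to 5, by ranks 6 to 10 and by all others, as stacked bars from 0 to 100. The top 10 hold 83.6% to 99.1% in aged bone-associated libraries and 28.4% to 36.4% in young bone marrow.

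Which segments led differed from mouse to mouse. In young bone marrow, Iglv1 led mice 1 and 2 with 7.98% and 6.82%, followed by Igkv4-58 (4.65%) and Igkv8-27 (4.35%) in mouse 1 and by Igkv9-120 (3.42%) and Igkv1-135 (2.94%) in mouse 2. In mouse 3 Igkv3-1 led with 9.96%, ahead of Iglv1 (5.65%) and Igkv15-103 (5.42%). Averaged over the 3 mice, the top 5 of young bone marrow were Iglv1, Igkv3-1, Igkv15-103, Iglv2 and Igkv1-135, with mean shares from 6.82% down to 2.33%. Igkv3-1 owed its rank to mouse 3, where it had 2066 counts, against 24 and 41 in the other young mice.
In young bone-associated libraries, counts of the leaders were small. Iglv1 led mouse 1 with 122 counts and mouse 2 with 62, followed by Igkv12-89 (119) and Ighv5-4 (72) in mouse 1 and by Iglv3 (29) and Igkv12-44 (26) in mouse 2. In mouse 3 Igkv10-94 (109 counts), Igkv6-17 (102) and Igkv15-103 (89) came ahead of Iglv1 (88). By mean share Ighv9-3, Igkv6-23 and Ighv10-3 were also among the top 5, at 2.96%, 2.89% and 2.56%.

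In aged bone marrow the leaders were kappa segments, a different one in each mouse. In mouse 1 Igkv3-4 held 24.6%, Igkv4-63 11.1% and Igkv9-120 8.11%. In mouse 2 Igkv6-32 held 28.8%, Igkv9-120 10.6% and the heavy segment Ighv4-1 6.42%. In mouse 3 Igkv6-15 held 15.9%, Igkv12-89 15.7% and Iglv1 8.42%.
The aged bone-associated libraries were led by kappa segments too. In mouse 1 Igkv9-120 held 28.8%, Igkv4-57 14.5% and Igkv6-20 9.40%. In mouse 2 Igkv6-32 held 34.1%, Igkv16-104 12% and Igkv9-120 11.9%. In mouse 3 Igkv6-15 held 67.8%, Igkv12-89 18.5% and Ighv1-26 5.22%. Igkv9-120 was therefore high in aged mice 1 and 2 at both sites.

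The counts of these segments across the aged bone-associated libraries were very uneven. Igkv6-15, which led mouse 3, had 695, 0 and 233146 counts in mice 1 to 3, or 25.9, 0 and 7416 CPM. Igkv6-32, which led mouse 2, had 4, 71076 and 2 counts. Igkv9-120 had 66299, 24712 and 135. The 2 family members Igkv6-15 and Igkv6-32, both printed above, were thus high in different mice.
Igkv4-57 had 33286, 123 and 17 counts, Igkv16-104 had 0, 25037 and 0, and Igkv4-63 had 20140, 0 and 0. In young bone marrow Igkv6-15 had 10.9, 9.45 and 10.6 CPM and Igkv6-32 had 5.68, 4.71 and 6.78 CPM, with little spread between mice. Igkv9-120 was less even there, with 4.23, 16.3 and 5.41 CPM.
Heavy segments were uneven in the same way. Ighv2-3 had 10357, 0 and 1 counts in aged bone-associated cells and led the heavy chains of mouse 1 with 21.1% of heavy counts. Ighv4-1 had 563, 14990 and 1 and led mouse 2 with 31.4%. Ighv1-26 had 2766, 2853 and 17941 and led mouse 3 with 53.1%, and it was the only one of these heavy leaders with many counts in all 3 aged mice.

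**Figure D4:**
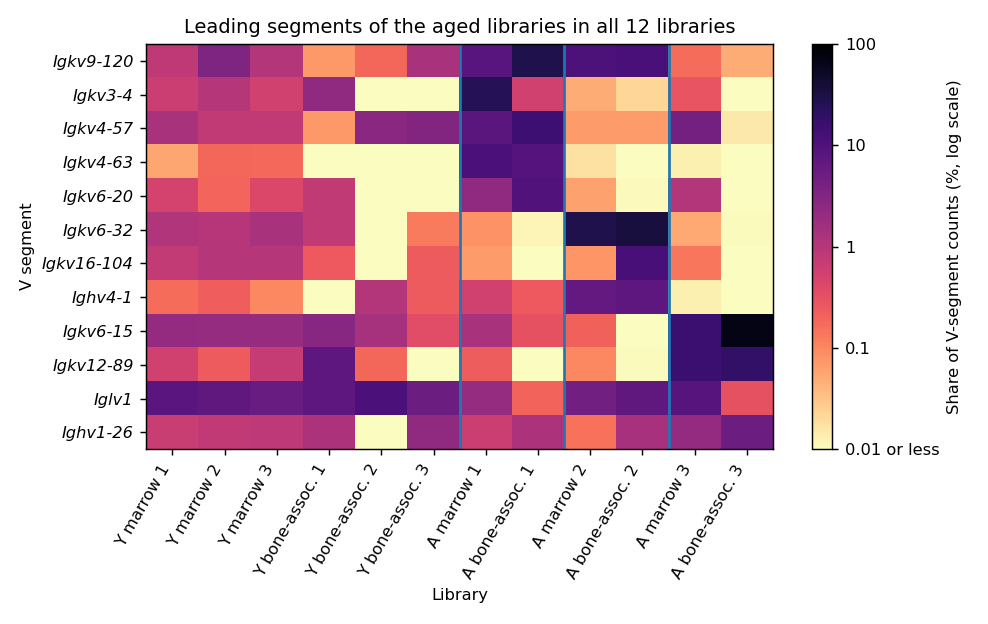
Share of V-segment counts (%, log colour scale, 0.01 or less in the palest shade) of 12 leading segments of the aged libraries in all 12 libraries; Y is young, A aged, and lines part the aged mice. Igkv6-32 is dark in both libraries of aged mouse 2 and Igkv6-15 in those of aged mouse 3, whereas the young libraries vary less.

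The spread within a group was much wider for V segments than for other genes in aged libraries. Among segments with at least 30 counts in aged bone-associated cells, 71 of 97 (73.2%) had over 90% of the group's summed CPM in 1 mouse. Of all other genes with at least 30 counts there, 4.61% did. In aged bone marrow 37 of 141 segments did, against 0.628% of other genes. In young bone marrow 3 of 170 did, against 0.572%. In young bone-associated cells, where counts were few, 7 of 41 did, against 1.18%.
The median segment had 98.4% of its group's CPM in its highest library in aged bone-associated cells, 73.2% in aged bone marrow, 61.0% in young bone-associated cells and 43.4% in young bone marrow. The medians for other genes lay between 38.6% and 41.6%. Of the 184 members, 23 had a count in all 3 aged bone-associated libraries, 60 in 1 only and 46 in none. In young bone marrow 179 had a count in all 3.

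The 2 sites of an aged mouse used the same segments far more than different aged mice did. Shared use of a pair of libraries was measured as the sum, over members, of the smaller of the 2 shares of V-segment counts, so that 100% means identical use. For the 2 sites of the same aged mouse it was 44.3%, 66.0% and 42.1% in mice 1 to 3, and 6, 7 and 8 of the top 10 segments were shared. For the 6 pairs of different aged mice across sites it was 5.34% to 14.3%, with 1 to 2 of the top 10 shared. The 2 ranges did not overlap. Within a site, different aged mice shared 21.5% to 25.9% in bone marrow and 2.14% to 14.7% in bone-associated cells.
Young mice did not show this gap. The 2 sites of the same young mouse shared 52.6%, 38.9% and 45.8%, and the 6 pairs of different young mice across sites shared 35.0% to 52.0%. Different young mice shared 71.4% to 76.1% in bone marrow and 33.2% to 46.8% in bone-associated cells, which had only 573 to 1738 V-segment counts. Pairs of different age shared 3.96% to 39.6% over 36 pairs. The difference between ages in this measure was not tested.

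The same held when the top 5 segments of one library were followed into the others, a view chosen after the values were seen. The top 5 of the aged bone-associated libraries held 32.1%, 51.9% and 42.3% of the V-segment counts in bone marrow of the same mouse. They held 0.429% to 10.8% in bone marrow of the other aged mice. In the reverse direction, the top 5 of aged bone marrow held 54.7%, 63.9% and 89.1% in bone-associated cells of the same mouse and 0.0442% to 29.1% in those of other aged mice. The value of 29.1% was for the bone marrow leaders of mouse 2 in mouse 1, which share Igkv9-120. In young mice, the top 5 of bone-associated libraries held 11.8% to 13.4% in bone marrow of the same mouse and 8.88% to 12.7% in that of other mice.
Exceptions to shared leaders were found as well. Igkv3-4 held 24.6% in bone marrow of aged mouse 1, with 20251 counts, but had 1233 counts in bone-associated cells of that mouse. Igkv16-104 had 25037 counts in bone-associated cells of aged mouse 2 and 46 in its bone marrow.

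**Figure D5:**
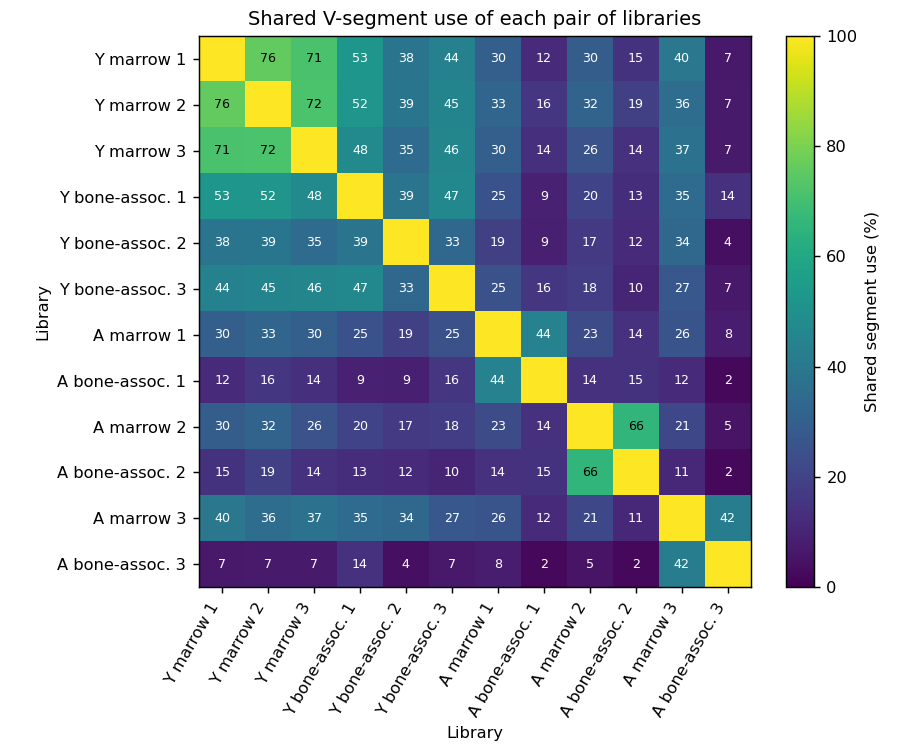
Shared V-segment use (%) of each pair of the 12 libraries, from 0 to 100; Y is young and A aged, and the aged libraries are ordered by mouse. The 3 pairs of sites within an aged mouse (44.3%, 66.0% and 42.1%) stand out from pairs of different aged mice (2.14% to 25.9%).

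Single segments were tested with edgeR's quasi-likelihood test over all 16209 genes that passed the low-count filter, with Benjamini-Hochberg adjusted p below 0.05 as a call. Of the 184 members, 168 passed that filter and 16 were not tested. For age in bone marrow, 0 members were called, against 7.46% of all genes tested (4.37% higher and 3.08% lower). At an unadjusted p under 0.05 there were 14 members, and DESeq2 called 3. The median standard error of a member's log2 fold change was 1.501, against 0.331 for all genes. The median member differed by -0.13 on the log2 scale and the median gene by -0.01.
The higher sum in aged bone marrow thus came with few segments that were higher in every mouse. Igkv4-55 came closest to a call, with 13.0, 100.5 and 46.9 CPM in aged and 1.97, 2.0 and 2.16 CPM in young mice, without overlap. Of all 184 members, 11 were higher in every aged than in every young library and 42 were lower in every one. Of the 16972 genes with at least 50 summed counts, 15.7% and 15.4% were so. Fewer members were thus higher without overlap than among all genes, and more were lower.

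For age in bone-associated cells, 10 members were called higher and 2 lower, against 4.89% and 4.87% of all genes in these directions. The share of tested members called higher or lower (7.14%) was near the 9.75% of all genes, although summed V-segment RNA was 181 times higher. Without overlap, 10 of the 184 members were higher and 3 lower, against 12.1% and 14.8% of genes. Median standard errors were 1.90 for members and 0.328 for all genes. The median log2 difference of the members was 1.78, or 1.09 when the 65 members with a group at 0 were set to the bound that 3 counts over that group allow.
Ighv1-26 had 103.1, 129.8 and 570.6 CPM in aged and 0.801, 0 and 1.49 CPM in young bone-associated libraries. Every aged library was far above the young ones. Its log2 fold change was 8.35 (SE 1.05, adjusted p = 0.00112), and the call held when any library was left out.
Igkv3-2, a low kappa segment named after its values were seen, had 2.79, 4.73 and 13.5 CPM in aged libraries and a single count in the 3 young ones. The ratio of its pooled rates was 533 (95% counting interval 95.3 to 21092), and its call (adjusted p = 6.85e-04) also held when any library was left out. It was low beside the leaders of these libraries, and present in all 3 aged mice.
Igkv9-120 had 2470, 1124 and 4.29 CPM in aged and 0.0401, 0.0548 and 0.836 CPM in young libraries. The groups did not overlap, but mouse 3 was near the young range. Its log2 fold change was 11.76 (SE 2.92, adjusted p = 0.0392), a call lost in 5 of 6 fits that left out a library, with adjusted p up to 0.125.

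Iglv1 rose by a log2 fold change of 5.92 (SE 1.31, adjusted p = 0.0225), from 4.89, 3.40 and 3.20 CPM in young to 16.6, 646.1 and 32.6 CPM in aged libraries. Its call was lost in 3 of 6 fits that left out a library, with adjusted p up to 0.0916. Igkv4-55 (76.0 ± 116 CPM in aged libraries), Ighv1-53 (28.4 ± 41.5) and Iglv3 (24.2 ± 32.9) were called higher as well, with SDs larger than their means. These calls were lost in 2, 2 and 4 of the 6 fits that left out a library, with adjusted p up to 0.0678, 0.0685 and 0.103. Igkv19-93, Ighv1-7 and Igkv6-14, named here because they complete the 10, were outside the rule for named segments, and the aged range of Igkv19-93 (54.9, 49.8 and 0 CPM) overlapped the young. Their calls were lost in 3, 2 and 5 of those fits. Igkv6-14, listed at 0 in all young bone-associated libraries, was at least 19.1-fold higher in aged ones at a mean of only 0.812 CPM.
The called lower segments were Ighv9-3 and Ighv1-41. Ighv9-3 had 1.76, 1.37 and 1.16 CPM in young and 0, 0.0910 and 0.127 CPM in aged libraries (log2 fold change -4.20, SE 0.75, adjusted p = 0.00627). It was lower in all 3 aged mice, while the sum of all segments was higher. Ighv1-41, annotated as a pseudogene, had a log2 fold change of -3.04 (adjusted p = 0.0300), a call lost in 4 of 6 fits that left out a library.
Several leading segments were not called. Igkv6-15 had an adjusted p of 0.0709 and Igkv6-32 of 0.143, with standard errors of 3.48 and 4.82 on the log2 scale, and each was high in 1 aged mouse only. Ighv2-3, at 0 in young bone-associated cells, was at least 3033-fold higher by group means, all of it from mouse 1 (adjusted p = 0.181). The number of calls moved with the libraries used. It was 5, 4 and 6 without young bone-associated library 1, 2 and 3, and 16 to 17 without an aged one.

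Between the sites of young mice, 38 members were called lower in bone-associated cells and 0 higher, against 13.0% and 14.9% of all genes. Of these 38, 22 had no count in any young bone-associated library. Without overlap, 154 of 184 members were lower and 0 higher, against 28.1% and 23.7% of genes with at least 50 counts. The median log2 difference of tested members was -3.95, or -3.52 with the 41 members at 0 in a group set to their bound, against -0.09 over all genes.
Igkv3-1 had 0.695, 1.28 and 52.4 CPM in young bone marrow and no count in bone-associated cells, at least 428-fold lower by group means. Its adjusted p was 0.0137, although 1 mouse gave most of its level. Igkv8-27 had 22.5, 3.99 and 3.60 CPM in young bone marrow but 0.280, 0.494 and 0 CPM in bone-associated cells (log2 fold change -5.30, SE 1.22, adjusted p = 0.00945), a call lost in 1 fit that left out a library (adjusted p = 0.0644). The count of calls fell to 21 to 27 when a library was left out, and to 21 without young bone-associated library 2, the shallowest.

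Between the sites of aged mice, single segments and the sum went opposite ways. The sum was 4.34 times higher in bone-associated cells, yet 37 members were called lower there and 1 higher, against 16.8% and 16.7% of all genes (33.4% in either direction). Of these 38, 28 had no count in any aged bone-associated library. Over all 184 members, 50 were lower and 1 higher without overlap, against 25.8% and 19.1% of genes. By group means 130 members were lower and 54 higher. The median log2 difference was -1.88, or -1.87 with the 38 members at 0 in a group at their bound, against -0.15 over all genes.
Ighv1-26 was the segment called higher. It had 17.1, 4.05 and 19.5 CPM in aged bone marrow and 103.1, 129.8 and 570.6 CPM in bone-associated cells, with a log2 fold change of 4.30 (SE 0.84, adjusted p = 0.00252). Every aged mouse had more of it in bone-associated cells. With the mouse as a block, 3 members were called higher and 25 lower, the others higher being Ighv2-3 (adjusted p = 0.0208) and Igkv9-120 (adjusted p = 0.0153). Nearly all counts of Ighv2-3 in aged bone-associated cells were from mouse 1, as given above.
Ighv11-2 had 1.14, 35.6 and 4.05 CPM in aged bone marrow and no count in bone-associated cells, at least 364-fold lower by group means (adjusted p = 0.0185, and 0.0509 in 1 fit that left out a library). Among members with a coding sequence, Ighv11-2 was the closest to Ighv4-1 (76.2% identity), the leading heavy segment of aged mouse 2. Pseudogenes, such as Ighv4-2 of the same family, were not compared. Igkv14-126 had 3.53, 141.3 and 15.5 CPM in aged bone marrow but 0.410, 0.137 and 0 CPM in bone-associated cells (log2 fold change -8.20, SE 1.71, adjusted p = 0.00359). Igkv15-103 had 36.6, 1.59 and 24.0 CPM against 0.0373, 0 and 1.24 CPM (log2 fold change -5.52, SE 1.75, adjusted p = 0.0304), and its call was lost in 4 fits that left out a library. Without aged bone-associated library 1 there were 59 calls.

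The age effects at the 2 sites were compared gene by gene with an interaction term. Of the members, 1 was called with a larger age effect in bone-associated cells and 0 with a smaller one, against 0.197% and 0.0802% of all genes (0.278% in either direction). It was Igkv3-2, with 4.06, 10.01 and 4.90 CPM in young bone marrow and 24.5, 24.1 and 10.3 CPM in aged bone marrow beside the bone-associated values given above. The difference was 6.94 on the log2 scale (SE 1.23, adjusted p = 0.0441). The call was lost in 10 of 12 fits that left out a library, with adjusted p up to 0.149, and with the mouse as a block (adjusted p = 0.103). In the fit with that block, Ighv1-26 and Igkv9-120 were called instead (adjusted p = 0.0433 each), against adjusted p of 0.0607 and 0.344 without it.

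Many of the constant region genes, to which V segments are joined, were called higher in aged mice. The list of 12 constant region genes and Jchain had 13 of 13 measured. Of these, 7 were called higher with age in bone marrow and 8 in bone-associated cells, with 0 lower. Ighd, the constant region of IgD, did not pass in bone marrow, with 95.5, 54.2 and 49.1 CPM in young and 56.6, 144.6 and 29.4 CPM in aged mice. Igkc, the kappa constant region, went from a mean of 514.6 CPM to 2960 with age in bone marrow and from 44.4 to 13064 CPM in bone-associated cells. Its age effect was larger in bone-associated cells by 5.67 on the log2 scale (adjusted p = 0.0252). Jchain, which links the units of secreted IgM and IgA, went from 21.0 to 368.8 CPM in bone marrow and from 0.612 to 1459 CPM in bone-associated cells. Ighm, the constant region of IgM, went from 1548 to 3955 and from 561.2 to 11598 CPM.
The ratio of kappa V counts to Igkc counts was steady, at 0.561 ± 0.00684 in young bone marrow, 0.562 ± 0.0497 in aged bone marrow, 0.550 ± 0.0531 in young and 0.591 ± 0.124 in aged bone-associated cells (n = 3 each). The groups overlapped in this ratio. The heavy V counts per heavy constant count differed more, at 0.0997 ± 0.00234, 0.1002 ± 0.0203, 0.0417 ± 0.00747 and 0.137 ± 0.0149. Young bone-associated cells, lowest in V segments, thus had fewer heavy V counts per constant region count than any other group.
Ighm made up 95.6%, 86.2%, 99.0% and 95.3% of heavy constant counts, in the same order of groups as above. Ighg1 made up 8.39% in bone marrow and 10.2% in bone-associated cells of aged mouse 1, but 0.294% or less in every other library. The share of this IgG class was thus high in 1 aged mouse, at both of its sites. Ighg2b made up 2.84%, 4.75% and 9.83% in aged bone marrow but 0.571%, 0.356% and 0.709% in aged bone-associated cells. Both comparisons of Ighg2b with age were called (log2 fold changes 6.98 and 7.42).

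Markers of B lineage cells moved with V-segment RNA in part. B cell markers (16 of 16 measured, none at 0) summed to 1487 to 1709 CPM in bone marrow of young mice and 760.8 to 3010 in that of aged mice, with 0 called by edgeR with age there. In bone-associated cells they summed to 259.9 to 376.7 CPM in young and 726.5 to 1520 CPM in aged libraries, and 8 were called higher with age. In young mice 13 were called lower in bone-associated cells than in bone marrow and in aged mice 3, with 0 higher. Unlike V segments, B cell markers in aged bone-associated cells summed to a lower mean (1014 CPM) than in aged bone marrow (1780 CPM), with overlapping libraries.
Plasma cell markers (12 of 12 measured, none at 0) summed to 595.4 to 640.0 CPM in young bone marrow, 977.4 to 1383 in aged bone marrow, 719.9 to 745.4 in young bone-associated cells and 2433 to 3160 in aged bone-associated cells. This list includes Jchain, which was also counted with the constant region genes above. The aged bone-associated sum averaged 2802 CPM, and the Jchain mean given above was a large part of it. With age 4 were called higher in bone marrow and 7 in bone-associated cells, and 2 had a larger age effect in bone-associated cells (Jchain and Slamf7). Between sites, 4 were called higher and 5 lower in bone-associated cells of young mice, and 6 higher and 0 lower in those of aged mice. Derl3, of protein quality control in secretory cells, went from 3.21 to 23.9 CPM in bone marrow and from 0.650 to 22.0 CPM in bone-associated cells. Tnfrsf17, a receptor of plasma cells, was low in bone-associated cells, at 0.123 CPM (young) and 4.08 CPM (aged), and was not called. The part of these markers in the V-segment result was not tested.
T cell markers (10 of 10 measured) summed to at most 209.8 CPM in any library, Cd8a was at 0 in young bone-associated cells, and 1 and 4 were called higher with age at the 2 sites. Plasmacytoid dendritic cell markers (6 of 6 measured) summed to 69.9 to 194.2 CPM, with 0 and 2 called higher. Macrophage markers showed 2 higher and 5 lower with age in bone marrow and 0 higher and 5 lower in bone-associated cells. Neutrophil markers showed 0 and 6 lower.

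Genes that act before or beside V-segment use were also counted. The surrogate light chain and recombination genes (Vpreb1, Vpreb2, Vpreb3, Igll1, Rag1, Rag2 and Dntt), which are active while B cells assemble their V segments, had a summed level of 178.6 ± 43.9 CPM in bone marrow of young mice and 53.9 ± 24.5 in that of aged mice. In bone-associated cells the level was 18.5 ± 16.4 CPM (young) and 7.53 ± 7.62 CPM (aged). The mean was lowest in aged bone-associated cells, where V-segment RNA was highest. It was next lowest in young bone-associated cells, where V-segment RNA was lowest. The libraries of these groups overlapped, at 2.89 to 16.3 CPM (aged) and 8.61 to 37.4 CPM (young). Only Rag2 was called lower with age, in bone-associated cells, where it had no count in aged mice, and 5 of the 7 were called lower in bone-associated cells than in bone marrow of aged mice.
Of the 8 factors of the V promoter octamer and the immunoglobulin enhancers, 2 were called higher and 1 lower with age in bone marrow, and 4 were called higher in bone-associated cells. Pou2f2, which binds the octamer of V promoters, went from 56.4 to 207.2 CPM in bone marrow and from 16.7 to 47.9 CPM in bone-associated cells. Ikzf3 went from 43.7 to 139.8 and from 18.5 to 75.9 CPM. In young mice 7 of the 8 were called lower and 1 higher in bone-associated cells, where V segments were lower too. In aged mice summed V-segment RNA was higher in bone-associated cells, yet 1 factor was called higher there and 2 lower. Pou2f2 had a lower mean in bone-associated cells at both ages.
Of the 11 Fc receptor genes, which bind antibody rather than encode it, 10 were tested. With age 2 were called higher and 2 lower in bone marrow and 3 higher in bone-associated cells. Fcgr4, an activating IgG receptor of macrophages, went from 62.0 to 2014 CPM in bone marrow (log2 fold change 5.02) and from 138.6 to 794.1 CPM in bone-associated cells (2.52). The difference between these age effects was -2.50 (adjusted p = 0.0813) and did not pass the test.

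By family, Igkv6 took the largest part in aged bone-associated cells. Its 9 members held 9.78%, 34.1% and 67.9% of V-segment counts in mice 1 to 3, against 5.43% to 6.85% in young bone marrow. It led in mice 2 and 3. In mouse 1 the 4 members of Igkv9 (28.8%) and the 24 members of Igkv4 (28.6%) held the most, against 0.0393% and 2.08% in mouse 3. The 47 members of Ighv1, the largest heavy family, held 15.7% to 19.1% in young bone marrow, 10.9% to 15.2% in aged bone marrow, 22.9% to 27.1% in young and 9.35% to 15.6% in aged bone-associated cells.
Some small heavy families had lower shares in aged than in young bone-associated cells and others had higher mean shares. The 4 members of Ighv9 held 7.68% at most in young bone-associated cells and 0.00869% or less in the aged ones. The 5 members of Ighv8 held 2.44% to 2.76% in young bone-associated cells and 0.0330% or less in the aged ones. The 2 members of Ighv4 averaged 0.426% in young and 2.48% in aged bone-associated cells, where mouse 2 had 7.19%. The 5 members of Ighv2 averaged 0.0384% and 1.5%, where aged mouse 1 had 4.50%.
Pseudogene segments, which cannot encode a working chain, held 1.87% ± 0.118 of V-segment counts in young bone marrow and 0.396% in aged bone marrow. They held 5.85% in young bone-associated cells, where V-segment RNA was lowest, and 0.0558% in aged bone-associated cells. Across groups, their share thus ran opposite to the V-segment level.
Position in the locus varied widely between the aged bone-associated libraries. The 45 heavy members nearest the J segments held 45.2% to 51.1% of heavy counts in young bone marrow and 5.09% to 63.4% in aged bone-associated cells. The nearer kappa members held 46.2% to 55.1% and 40.0% to 78.4% in these groups. In aged bone marrow they held 59.4%, 64.0% and 59.8%, above every young bone marrow library.

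Over the 12 libraries, the genes whose level most followed the summed V-segment level were Lrrc56 (Pearson's r 0.963), Smim14 (0.940), Sash3 (0.934), Gpr18 (0.933) and Derl3 (0.918), out of 9804 genes outside the immunoglobulin loci searched on the log2 CPM scale. The libraries fall into 4 groups, so these values describe 4 group levels more than 12 separate points. Gpr18 averaged 32.7 (young) and 81.8 CPM (aged) in bone marrow, and 25.1 (young) and 100.4 CPM (aged) in bone-associated cells. Lrrc56 averaged 6.53, 8.88, 3.77 and 11.2 CPM in that order, a far narrower range than that of the V segments.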

How the data were processed

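HTSeq 0.6.1, STAR 2.4.2a and Trimmomatic 0.32 are the tools, and GRCm38.p4 the genome build, that the submitters' processing notes list. The authors deposited raw read counts per gene symbol, 1 column per library, not normalised. Not given in the sources used here were the annotation, the strand setting and the treatment of reads that match several segments. A V segment that shares sequence with others is therefore uncertain, and the segments' own joined and mutated parts were not seen.

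Groups and mice were taken from the labels. Genes were kept with filterByExpr, scaled with TMM factors and tested with edgeR 4.0.16 in R 4.3.3, using quasi-likelihood tests (robust dispersion; the 12 libraries fitted together) and Benjamini-Hochberg adjustment over all 16209 genes. P-values rest on a spread between mice that was estimated for each gene over all groups together. A group with little spread, such as young bone marrow, was thus tested against a spread shared with more uneven groups. Both sites of a mouse were treated as separate libraries, except in the fit with the mouse as a block. The alternatives were scaling by library size alone, no low-count filter, DESeq2 1.42.0, fits of the compared groups only, the mouse as a block, other definitions of the members and measures, and leaving out each library. Counts at 0 in a group were given a bound of 3 counts over the group. The fit was tested on simulated counts with the same spread per gene in every group, and the thinning on drawn samples. The simulated counts lacked the difference in spread between groups that V segments had, so they do not cover that setting. Positions and sequences are from GENCODE M21.

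A code in the titles names the mouse behind each library. As a check, deviations of libraries from group means were correlated across 10249 genes outside the immunoglobulin loci with at least 5 CPM. Pearson's r for the same code was 0.0887, 0.0691 and 0.0673 in young and 0.0860, 0.232 and 0.122 in aged mice, and -0.217 to 0.0951 for other pairs. The pairing rests on the titles. Only the title of the bone marrow library of aged mouse 2 carries a suffix, R, whose meaning is not given. No 2 libraries of a group agreed within sampling noise, with a chi-square of 31.7 to 176 per degree of freedom.

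The members and lists were chosen with earlier results of these data known, so no p-value was computed for the members as a set. Segments were named by these rules: the top 3 of each library, the 5 with the highest mean share of a group, and per comparison up to 6 called members in each direction with at least 10 CPM and no overlap. The 3 segments on each side of the count limit were added. Lists of constant regions, recombination genes, Fc receptors, octamer factors and markers of 6 cell types were counted alongside. For these lists, genes were named as examples after their values were seen.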

Additional observations from a re-analysis of the deposited data

Results flagged for a closer look

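The difference between sites in summed V-segment level had opposite signs at the 2 ages in every mouse. The bone-associated level was 0.105 times the bone marrow level in young mice and 4.34 times in aged mice, by group means. This reversal was not tested, because it is a sum over chosen members.

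In the gene by gene test of the difference between age effects at the 2 sites, 4 immunoglobulin genes had a larger age effect in bone-associated cells (edgeR's quasi-likelihood test). On the log2 scale the difference was 6.94 for Igkv3-2 (adjusted p = 0.0441), 3.02 for Ighm (adjusted p = 0.0290), 5.67 for Igkc (adjusted p = 0.0252) and 7.04 for Jchain (adjusted p = 0.0371). The call of Igkv3-2 was lost in 10 of 12 fits that left out a library (adjusted p up to 0.149) and with the mouse as a block (adjusted p = 0.103). The calls of Ighm, Igkc and Jchain were not checked in these ways. Groups of 3 libraries were too small for a check of outlying samples.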

How the results depend on the processing

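The summed level kept its direction under every alternative, with log2 ratios of 1.91 to 2.50 (age in bone marrow), 7.23 to 7.68 (age in bone-associated cells), -3.42 to -2.97 (site, young) and 1.75 to 2.35 (site, aged) when a library was left out. Calls moved most, and the cause was not tested. For age in bone marrow there were 0 calls in edgeR, 3 in DESeq2 and 8 in a fit of the compared groups only, and 0 when any library was left out. For age in bone-associated cells there were 12, but 5 without a filter, 36 in DESeq2, 3 in the compared groups only and 4 to 17 with a library left out. For site in young mice there were 38, 60 in DESeq2, 101 in the compared groups only and 21 to 27 with a library left out. For site in aged mice there were 38, 15 in the compared groups only and 27 to 59. The fits of the compared groups only tested 156, 43, 148 and 109 members in this order of comparisons, against 168 in the main fit. Their counts of calls are therefore not on the same base. For the interaction there were 1, 12 in DESeq2 and 0 to 2. With the mouse as a replicate block, calls were 30 (site, young), 28 (site, aged) and 2 (interaction). The thinned number of segments differed by -65.3, -49.6, -59.5 and -43.8 in the same order of comparisons, with ranges of -66.4 to -63.4, -56.3 to -44.2, -64.9 to -52.8 and -49.2 to -39.8 with a library left out. Over all segments with a count, the first was -69.7. Unthinned, the number with at least 1 count differed by -14, 1.33, -103.7 and -88.3 and that with at least 10 counts by -38.3, 16.3, -121.7 and -67. Thus age in bone-associated cells reversed where depth in V-segment counts was not equalised. Thinning equalised counts and not molecules, since no molecular identifiers are stated. The top 5 share differed by 33.0, 52.6, 4.71 and 24.3 percentage points, with ranges of 30.8 to 35.1, 44.0 to 59.2, 2.52 to 6.80 and 15.8 to 30.9. For age in bone marrow it was 14.9 for the top segment, 39.3 for the top 10, 43.1 for kappa and 38.7 for heavy segments, and for age in bone-associated cells 35.4 for the top segment. For site in young mice it was -0.0788 for the top segment, 9.93 for the top 10, 17.1 for kappa and 11.6 for heavy segments. Depth limits the young bone-associated libraries most.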
